A study of Mus musculus with 40 samples.

Results

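The animals compared here are the 20 mice whose diet after weaning was the diet of their dam and the 20 mice whose diet was switched at weaning, out of 40 mice in all. The mice were C57BL/6J males killed at 9 weeks, and methylation was measured in whole liver by reduced representation bisulfite sequencing (RRBS). The matched animals were 10 born from low fat (LF) fed dams and fed LF (LF_LF) and 10 born from high fat (HF) fed dams and fed HF (HF_HF). The mismatched animals were 10 born from LF fed dams and fed HF (LF_HF) and 10 born from HF fed dams and fed LF (HF_LF). Dams ate their diet from before mating until weaning, and the fat of both diets came mainly from coconut oil. The males of a cage were divided between the post-weaning diets, so mice of different groups may be littermates, but the labels do not name the litters and every mouse was treated as 1 independent animal. The comparison asks whether the effect of the adult diet on methylation depended on the diet of the dam, which is the interaction of both diets: the mean of the LF_LF and HF_HF groups minus the mean of the LF_HF and HF_LF groups, with the terms of both diets in the model. All differences are matched minus mismatched, in percentage points of methylation.

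DNA methylation at a CpG is the addition of a methyl group to cytosine, which DNA methyltransferases copy to the new strand when a cell divides. Most CpGs of the liver genome outside dense CpG clusters are methylated, and the CpG-rich promoters of active and many silent genes are not. Because the mark can pass through cell division, methylation set during pregnancy and suckling has been considered as a memory of early diet, and a diet after weaning that differs from the early one is a common way to expose such a memory. RRBS cuts the DNA with MspI at the sequence CCGG and reads the ends of the fragments, so it samples CpG-rich DNA above all. In whole liver, a change in the makeup of cell types and a change within a cell type cannot be told apart.

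A methylation value needed at least 10 reads of the CpG in the mouse, and 262317 of the 400298 listed CpGs had a value in at least 36 of the 40 mice. Reads at CpGs summed to 2969907 to 23345592 in the matched mice and to 3488092 to 15680735 in the mismatched mice. The log10 of total reads did not pass the test between them (difference -0.0697, SE 0.0609, two-sided permutation test over 20 and 20 mice, p = 0.262). A value that rests on 10 reads moves in steps of 10%, and intervals from reads would cover counting error only. The hepatocyte, leukocyte and Kupffer cell marker genes had no promoter value (0 of 10, 0 of 6 and 0 of 4 genes), so the tissue label was not checked with them. Only 3 of the 4 Kupffer cell genes were in the annotation, and the promoters of the annotated markers held too few covered CpGs. A single HF_HF mouse, replicate 2, had both the most reads (23345592) and the lowest mean methylation of all 40 mice (38.4%). The means per mouse and the shares over all CpGs and all bins that were lower in matched mice are also given without it. Shares by level and annotation, values by diet of the dam or by autosome and most named sites are not.

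The 29 bases around the CpGs that the comparison ranked first are shown because these are the sites described below, and because they show what kind of DNA they lie in. Each is the plus strand of the mm9 genome (NCBIM37), with the listed CpG in capitals. The first 7 have lower methylation and the last 3 higher methylation in matched mice.
Fgg, coding exon, chr3:82816879-82816907: gaaggcaactgtgCGgaacaggatggatc
Intergenic, 1500009L16Rik the nearest start, chr10:83154935-83154963: gtagaacgcatccCGgatacaggaaagat
Fgfr1, promoter, chr8:26630124-26630152: gccaactcgcgctcCGgagctagcgagga
Anp32a, intron, chr9:62215924-62215952: cccctaaacagtgcCGggcacccttactc
4933406K04Rik, intron, chr12:107931257-107931285: tgtttagaagtgcaCGgcagcagcagatg
Ptchd2, intron, chr4:147658513-147658541: gctggaaagattcCGctggcttccctgaa
Sgms1, intron, chr19:32448474-32448502: gaaatgtagctcacCGgggacacaggaaa
Foxd3, promoter, chr4:99323024-99323052: gtggagaaacctcCGgggtcgcgagcagt
Frmpd1, coding exon, chr4:45292241-45292269: tgtatgagggcagcCGgactgactactat
Intergenic, Psmb9 the nearest start, chr17:34308010-34308038: gggggggggagaccCGgaaaagagaagac

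No single CpG passed the test between matched and mismatched mice after correction for multiple testing. Of the 254765 CpGs tested, 0% passed a false discovery rate (FDR) of 5% (linear model, two-sided, Benjamini-Hochberg adjustment over all CpGs, smallest FDR 0.349). Without adjustment, 10639 CpGs (4.18%) had p below 0.05, of which 6661 were lower in matched mice (2.61% of the CpGs tested) and 3978 were higher (1.56%). A quasi-binomial model of the read counts also called 0 CpGs, with 12389 of 245728 (5.04%) at an unadjusted p below 0.05. On the log2 ratio of methylated over unmethylated reads, limma called 0, with 12506 of 262317 (4.77%). Differences ran from -19.3 to 15.7 points, and the median SE was 1.64 points, or 2.67 points at CpGs with mean methylation from 5% to 95%. With these errors, a difference of a few points at a single CpG was not detectable. Far larger ones also did not pass, such as -19.3 points (SE 4.70, FDR 0.868) and -12.0 points (SE 2.06, FDR 0.349).

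The CpGs with an unadjusted p below 0.05 were divided unevenly between the directions. Lower methylation in matched mice made up 62.6% of them, or 59.1% without HF_HF replicate 2. At CpGs with intermediate mean methylation (10% to 90%) the share was 68.5% of 4160, at CpGs of 90% or more it was 66.0% of 2432, and at CpGs under 10% it was 54.5% of 4047. By place in the genome, the share was 66.6% of 2872 intergenic CpGs, 65.9% of 2730 intronic CpGs, 64.5% of 1533 exonic CpGs outside promoters and 55.9% of 3488 promoter CpGs, a promoter being 1000 bp upstream to 500 bp downstream of an annotated start. Neighbouring CpGs share fragments and all CpGs share the same 40 mice, so these shares are a description with no test. With the mean methylation of the mouse as a covariate, the share of CpGs lower in matched mice was 52.8%. That covariate is a mean over CpGs of the same mice and differed between the sets, so it takes up a common shift by its construction.

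**Figure D1:**
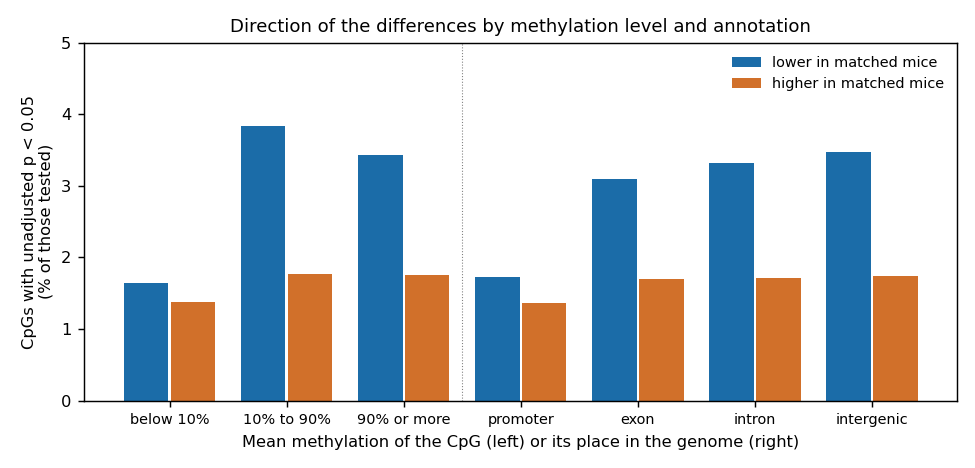
Percentage of the CpGs tested with an unadjusted p below 0.05 that were lower (blue) or higher (orange) in matched mice, by mean methylation of the CpG (left) and by annotation (right). The blue bar is the taller in every class, by the most at CpGs of 10% to 90%, and the bars differ least below 10% and in promoters.

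The means per mouse showed a small difference in the same direction. Over the 34368 CpGs with a value in all 40 mice, methylation was 39.4% in matched and 39.6% in mismatched mice. In LF_LF mice the mean methylation of an animal ran from 39.4% to 39.7% with a median of 39.4%, and in HF_HF mice from 38.4% to 39.7% with a median of 39.4%. In LF_HF mice it ran from 39.2% to 39.9% with a median of 39.6%, and in HF_LF mice from 39.4% to 40% with a median of 39.7%. The groups overlapped, with 18 of the 20 matched mice below the median of the mismatched mice. The difference was -0.214 points (SE 0.0781, 95% confidence interval -0.372 to -0.0556, two-sided permutation test, p = 0.00644, adjusted p = 0.0258 over the 8 means tested). It was -0.0797 points among animals born from LF fed dams and -0.348 among those born from HF fed dams, and these 2 values were not tested. The SDs of the groups were 0.133 points in LF_LF, 0.26 in LF_HF, 0.164 in HF_LF and 0.363 in HF_HF, which includes replicate 2.

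Several other settings bear on that difference. Without HF_HF replicate 2 it was -0.163 points (permutation test, p = 0.0116, adjusted p = 0.0464), and with log10 of total reads as a covariate it was -0.230 (p = 0.00476). Over every CpG that a mouse covered it was -0.114 (p = 0.476), and the part of uneven coverage in this was not tested. With each CpG taken relative to its own mean over the mice, a setting chosen after seeing the data, it was -0.211 (p = 0.0024). The ratio of summed reads, in which deeply covered CpGs weigh most, gave -0.58 (p = 0.541), and CpGs with at least 20 reads in all 40 mice gave -1.07 (SE 0.679, p = 0.127).

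Intergenic CpGs carried the largest of the differences by annotation. Over the 8385 intergenic CpGs covered in all mice, methylation was 60.2% in matched and 60.6% in mismatched animals, a difference of -0.413 points (SE 0.147, permutation test, adjusted p = 0.0258), and 19 of the 20 matched mice were below the mismatched median. The 7671 intronic CpGs differed by -0.299 points and the 4394 exonic CpGs by -0.209 points, both with an adjusted p of 0.0366. Without HF_HF replicate 2 the intergenic difference was -0.321 points (adjusted p = 0.0464), but the intronic one was -0.230 and the exonic one -0.164, both with an adjusted p of 0.0726. The 13879 promoter CpGs, at 10.1% in both sets of mice, differed by -0.0485 points (adjusted p = 0.119), or -0.0314 without HF_HF replicate 2 (adjusted p = 0.234). With log10 of total reads as a covariate the promoter difference was -0.0647 (adjusted p = 0.037). Without the 4 mice with the fewest reads the promoter difference was -0.0631 and the exonic one -0.198, both with an adjusted p of 0.0507. By level, CpGs of 10% to 90% differed by -0.459 points (adjusted p = 0.0366, or -0.323 points and 0.072 without HF_HF replicate 2). CpGs of 90% or more differed by -0.266 (adjusted p = 0.0604, or -0.248 and 0.0872 without that mouse). CpGs under 10% differed by -0.0229 (adjusted p = 0.244, or -0.0176 and 0.363 without that mouse), and by -0.0146 without LF_HF replicate 10. When each of the 40 mice was left out in turn, the call over all CpGs and the intergenic call were kept in every case. The calls at 10% to 90%, in introns and in exons were lost for 9, 11 and 14 of the mice. Whether these parts differ from each other was not tested.

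**Figure D2:**
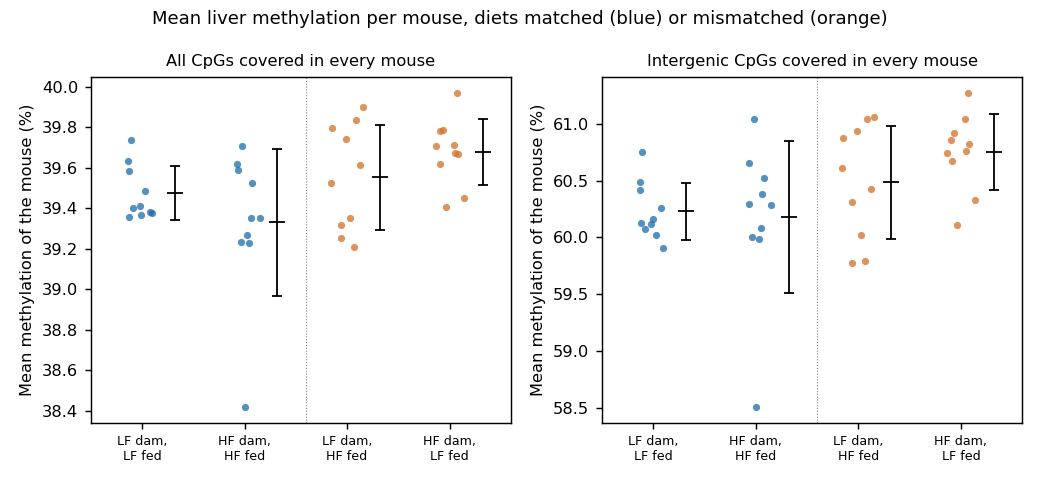
Mean methylation of each of the 40 mice (percent) over all CpGs covered in every mouse and over the intergenic ones, by diet of the dam and diet fed after weaning; points are mice and bars the group mean ± SD of 10 mice. Matched groups (blue) have lower means than mismatched groups (orange) with much overlap, and 1 HF_HF mouse lies at 38.4%, below all others.

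The difference was spread over the genome. Mean methylation over the same CpGs was lower in matched mice on 19 of 19 autosomes, from -0.434 points on chromosome 17 (SE 0.240) to -0.0552 on chromosome 15 (SE 0.112), with a median of -0.233. The value of chromosome 17 rested on its ribosomal DNA segment, which holds 399 of its 1994 CpGs. Without the segment chromosome 17 was at -0.154 points (SE 0.0826), still lower in matched mice, and the autosome with the largest difference was chromosome 9 at -0.302. The chromosomes come from the same 40 libraries, so this count is a description.

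**Figure D3:**
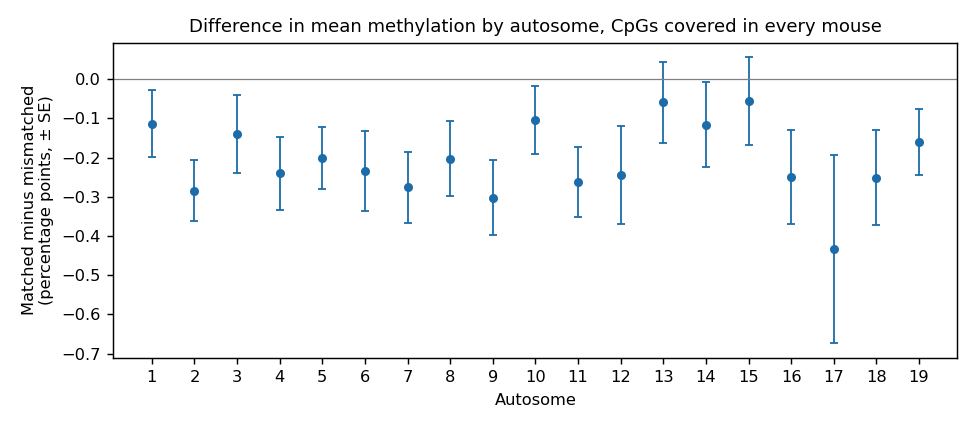
Matched minus mismatched mean methylation (percentage points) for each autosome over CpGs covered in every mouse, with the SE of the linear model over 40 mice. All 19 points lie below 0, between -0.434 and -0.0552, and the lowest, chromosome 17, includes the ribosomal DNA segment.

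The CpG with the smallest p lay in a coding exon of Fgg, which encodes the gamma chain of fibrinogen, the clotting protein that hepatocytes secrete. In matched mice its methylation ran from 18.2% to 33.3% with a median of 25.7%, and in mismatched mice from 23.1% to 50% with a median of 38.5%. By group the medians were 28.3% in LF_LF, 22.6% in HF_HF, 41.2% in LF_HF and 33.3% in HF_LF. All 19 matched mice with a value were below the mismatched median, although the ranges overlapped. The difference was -12.0 points (SE 2.06, 38 mice, permutation test, p = 3e-05, FDR 0.349). It was -13.8 points among animals born from LF fed dams and -10.1 points among those born from HF fed dams. Here and at the sites below, the FDR is that of the linear model, not an adjustment of the permutation p. A small p chose these sites, so the permutation test on the same mice adds no support. All 5 other tested CpGs within 100 bp were also lower in matched mice, 2 of them with an unadjusted p below 0.05 and with a median difference of -4.66 points. Without LF_HF replicate 5, the mouse with 25.0% at this CpG, the difference was -12.9 points and the FDR 0.0236, the 1 CpG that passed an FDR of 5% in any of the settings run. Over all the alternatives tried for this CpG, its FDR ran from 0.0236 to 0.944.

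Fgfr1 encodes a receptor tyrosine kinase for fibroblast growth factors, and the CpG at chr8:26630138 in its promoter was little methylated. The matched mice ran from 0% to 9.38% with a median of 1.72%, and the mismatched mice from 0% to 12.5% with a median of 8.33%. Of the animals, 10 matched mice and 1 mismatched mouse had no methylated read, at 12 to 48 reads per mouse. The difference was -4.97 points (SE 0.912, 39 mice, permutation test, p = 1e-05, the smallest these resamples can give, FDR 0.349). LF_LF mice were lowest, with a mean of 0.976%, against 4.45% in HF_HF, 8.71% in LF_HF and 6.66% in HF_LF. The 10 tested neighbours within 100 bp had a median difference of -0.281 points and 0 with the same sign and p below 0.05, and the cytosine on the other strand of the same CpG differed by 2.99 points in the other direction (p = 0.227, linear model).

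The remaining CpGs of the 10 that were lower in matched mice lay outside promoters. An intergenic CpG at chr10:83154949, 30661 bp upstream of the nearest annotated start (1500009L16Rik), had medians of 57.9% in matched and 72.1% in mismatched mice. Its difference was -14.5 points (SE 2.58, 37 mice, permutation test, p = 1e-05, FDR 0.349), with the LF_HF mice highest at 70.6% to 92.9%. In an intron of Anp32a, which encodes a nuclear phosphoprotein that binds histones, matched mice ran from 0% to 36.4% with a median of 17.9% and mismatched mice from 16% to 44.0% with a median of 33.3%. That difference was -14.4 points (SE 2.68, 37 mice, permutation test, p = 2e-05, FDR 0.364). The cytosine on the other strand of the Anp32a CpG differed by 1.22 points in the other direction (linear model, p = 0.694). At both sites the neighbours within 100 bp had medians of the opposite sign (0.919 and 0.880 points). An intronic CpG of 4933406K04Rik was nearly fully methylated in mismatched mice, at 82.4% to 100%, and ran from 58.3% to 96.0% in matched mice, a difference of -12.7 points.

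Ptchd2 encodes a membrane protein of the patched and dispatched family. Its intronic CpG at chr4:147658527 ran from 65.0% to 87.1% in mismatched mice and from 27.3% to 73.3% in matched mice, with medians of 73.1% and 61.5%. It was of like size in both maternal groups, at -15.6 points for LF fed dams and -16.7 points for HF fed dams. Sgms1 encodes a sphingomyelin synthase of the Golgi. Its intronic CpG at chr19:32448488 had medians of 61.7% in matched and 78.1% in mismatched mice. The difference was -15.5 points (SE 3.38, 39 mice, permutation test, p = 9e-05, FDR 0.868), and its single tested neighbour within 100 bp differed by -14.1 points with p below 0.05. The part from animals born from HF fed dams was -21.8 points and that from animals born from LF fed dams -9.09 points.

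The other 3 of the 10 CpGs were higher in matched mice, all at the low or high end of the methylation scale. Foxd3 encodes a forkhead transcription factor of pluripotent cells and the neural crest, and its promoter CpG at chr4:99323038, 48 bp past the start, was low throughout. Matched mice ran from 0% to 17.9% with a median of 7.57% and mismatched mice from 0% to 9.68% with a median of 0%. The difference was 6.04 points (SE 1.24, 37 mice, permutation test, p = 4e-05, FDR 0.868), and 10 mismatched mice but 1 matched mouse had no methylated read. In the coding exon of Frmpd1, which encodes a protein with FERM and PDZ domains, 10 matched mice and 1 mismatched mouse had every read methylated. That CpG differed by 6.78 points (SE 1.45, 37 mice, permutation test, p = 7e-05, FDR 0.868). The third, at chr17:34308024 and 12470 bp past the start of Psmb9, a subunit of the immunoproteasome, had medians of 9.38% in matched and 3.23% in mismatched mice. Its difference was 6.51 points (SE 1.42, 39 mice, permutation test, p = 4e-05, FDR 0.868). Beside the Foxd3 site, 4 of 9 tested neighbours had the same sign and 0 had it with p below 0.05.

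**Figure D4:**
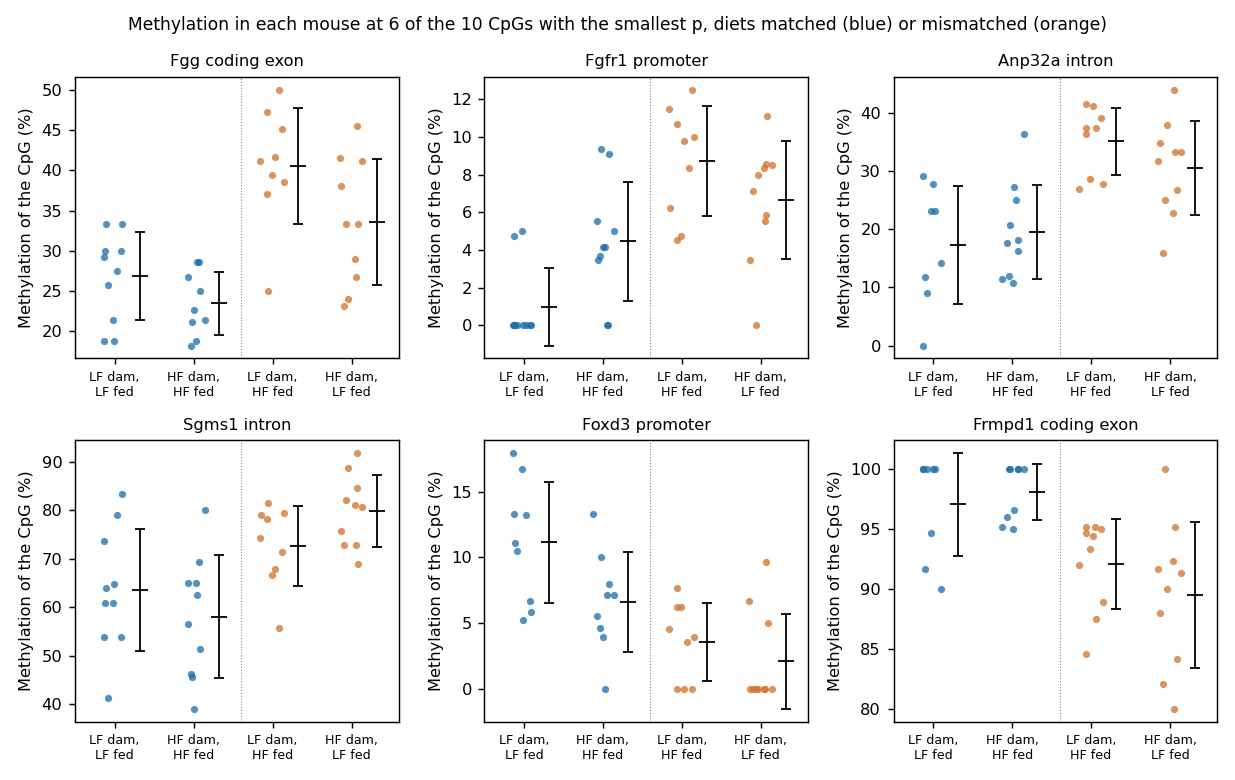
Methylation (percent) in each mouse with at least 10 reads at 6 of the 10 CpGs with the smallest p, by diet of the dam and diet fed after weaning; points are mice, bars the group mean ± SD of 8 to 10 mice. The means of both matched groups (blue) lie on the same side of the means of both mismatched groups (orange) in every panel, with overlapping values.

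A difference of this form puts both matched group means on 1 side of both mismatched means. That was so at 30.6% of all CpGs tested and at 91.8% of those with an unadjusted p below 0.05. The p was used to choose the second set, so its share is a description of what the interaction selects.

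The largest differences among CpGs with a value in all 40 mice were at intermediate methylation. Their SEs were larger than those of most of the CpGs above. At chr14:62207473, 9590 bp upstream of Trim13, a ubiquitin ligase of the endoplasmic reticulum, matched mice ran from 15.4% to 74.5% with a median of 52.8% and mismatched mice from 40% to 88.9% with a median of 64.0%. The difference was -19.3 points (SE 4.70, permutation test, p = 0.00021, FDR 0.868). A CpG in a coding exon of Anks1, which is also in the promoter window of Gm15598, had medians of 20.2% and 33.3% and a difference of -16 points (SE 4.04). In Foxi2, which encodes a forkhead transcription factor, the coding CpG at chr7:142603643 had medians of 32.7% and 46.6% and differed by -14.4 points (SE 3.52). All 4 of its tested neighbours within 100 bp were lower in matched mice with p below 0.05, with a median of -9.40 points.

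Rassf5, a Ras-binding tumour suppressor, had an intronic CpG with medians of 50.8% in matched and 62.5% in mismatched mice, a difference of -14.4 points (SE 4.26). A CpG 4616 bp upstream of Pdlim4, which encodes a protein of the actin cytoskeleton, differed by -13.4 points (SE 3.64). At that CpG the cytosine on the other strand gave -11.9 points (linear model, unadjusted p = 0.00409), from reads of the opposite strand.

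The 5 largest differences in the other direction had SEs of 3.63 to 5.85 points. They lay in introns of Lhfpl3 (13.1 points, SE 4.74), Ajap1 (12.2, SE 3.63), Gsn (11.1, SE 4.99) and Nos1ap (11.0, SE 5.07) and near the pseudogene AY036118 (13.9, SE 5.85). Gsn encodes gelsolin, which severs actin filaments, Ajap1 a protein of adherens junctions, and Nos1ap an adaptor of neuronal nitric oxide synthase. In Ajap1 the LF_LF mice ran from 60.9% to 86.7% and the HF_LF mice from 40% to 66.7%, while the HF_HF mice ran from 43.3% to 87.5% and the LF_HF mice from 23.5% to 71.4%. The CpG near AY036118, at chr17:39981798, lies in the ribosomal DNA segment of chromosome 17 and was covered by 18 to 1085 reads per mouse. Its 35 tested neighbours within 100 bp had a median difference of -1.40 points, opposite to its own, the cytosine on the other strand differed by 1.17 points (linear model, p = 0.674), and the whole difference came from animals born from HF fed dams (28.6 points against -0.745 points).

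Adjacent CpGs tended to have the same sign. Of 182774 pairs of adjacent tested CpGs within 100 bp, 53.2% had differences of the same sign, and of the pairs in which both had p below 0.05, 408 (82.8%) did. Such pairs often share reads. Of all tested CpGs 38.8% lay within CCGG, the MspI site, against 53.4% of those lower in matched mice and 45.7% of those higher with p below 0.05. Of CpGs with 10% to 90% methylation, 55.2% of all tested, 58.9% of those lower in matched mice and 51.5% of those higher lay within it. The median GC content of the 29 bases was 65.5% over all tested CpGs and 62.1% in both directions, and 58.6% in each of the 3 sets at 10% to 90% methylation. These shares were not tested.

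Means over 1 kb bins gave the same picture as single CpGs. Of 30687 bins with at least 3 CpGs, 0% passed an FDR of 5% (smallest FDR 0.524). At an unadjusted p below 0.05 were 1591 bins (5.18%), of which 1069 were lower (3.48%) and 522 higher (1.70%) in matched mice. The lower ones made up 67.2% of them, or 62.8% without HF_HF replicate 2. With the mean methylation of the mouse as a covariate, which takes up a common shift by its construction, they made up 52.9%. The bins with the smallest p were nonetheless of both directions. At chr14:57680001-57681000, 3 CpGs close to Gja3, a gap junction gene, had medians of 79.8% in matched and 71.6% in mismatched mice, a difference of 8.39 points (SE 1.77, permutation test, p = 4e-05). In an intron of Smad6, an inhibitor of bone morphogenetic protein signalling, 3 CpGs at chr9:63828001-63829000 had medians of 75.2% and 63.5% and a difference of 9.93 points (SE 2.21).

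In the other direction, 3 CpGs at chr7:105273001-105274000 in an intron of Capn5, which encodes a calpain protease, had medians of 44.6% in matched and 55.7% in mismatched mice. That difference was -11.7 points (SE 2.62, permutation test, p = 5e-05), and 3 of 3 CpGs were lower in matched mice with p below 0.05. The HF_HF mice were the most variable there, at 38.2% ± 13.5 (SD, n = 9), against 49.1% ± 6.69 (n = 10) in LF_LF, 55.2% ± 4.95 (n = 9) in LF_HF and 55.4% ± 4.17 (n = 10) in HF_LF. The 2 others of the 5 bins were nearly unmethylated. The first, at chr1:138131001-138132000 in the promoter of 5730559C18Rik, had 2.38% in matched and 0.608% in mismatched mice (medians, difference 1.42 points, SE 0.314). Over the alternatives run its difference was 1.29 to 2.24 points. The second, at chr11:98644001-98645000 and 7822 bp from Nr1d1, which encodes a nuclear receptor of the circadian clock, had 1.89% and 4.45% (difference -2.25 points, SE 0.505).

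The differences of promoters with the smallest p were a few points at most, and most of these promoters had little methylation. Of 11070 promoters with at least 3 CpGs, 0% passed an FDR of 5% (smallest FDR 0.632). At an unadjusted p below 0.05 were 521 (4.71%), with 297 lower (2.68%) and 224 higher (2.02%) in matched mice. With at least 10 reads in all 40 mice the balance turned, with 63 of 138 lower, and with at least 20 reads 1 of 5 was lower. The median difference over all promoters was -0.01 points. Adamts5, which encodes a protease of the extracellular matrix, had the smallest p. Its promoter mean over 6 CpGs ran from 1.34% to 6.67% in matched mice and from 4.27% to 14.3% in mismatched mice, with medians of 3.62% and 6.24%. The difference was -2.60 points (SE 0.613, permutation test, p = 0.00011).

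Srebf2 encodes the transcription factor that switches on cholesterol synthesis when sterols are low, and it was among the 10 promoters with the smallest p. Over 8 CpGs its promoter mean ran from 0% to 2.78% in matched mice and from 0.714% to 3.86% in mismatched mice, with medians of 1.24% and 2.0%. The group means were 1.04% in LF_LF, 1.17% in HF_HF, 1.99% in LF_HF and 2.13% in HF_LF. The difference was -0.952 points (SE 0.255, permutation test, p = 0.00068, FDR 0.795), and 5 of its 8 CpGs had the same sign. The level was under 4% in every mouse.

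Among the other promoters with the smallest p, Manf, which encodes a protein of the response to stress in the endoplasmic reticulum, shared all 23 CpGs with the divergent 4930524O07Rik. They had 0.771% in matched and 1.42% in mismatched mice (medians, difference -0.574 points, SE 0.137). Lower in matched mice were also Cpne7 (-2.96 points), Tubd1 (-0.716), which encodes delta tubulin, and Gm11549 (-1.41). Smyd3, which encodes a lysine methyltransferase, was higher by 0.971 points, and so were Whrn (1.10), a scaffold protein of the inner ear and retina, and the methylated promoter of Mslnl (3.6), at 89.8% in LF_LF, 89.5% in HF_HF, 84.7% in LF_HF and 87.4% in HF_LF. Over the alternatives run, Cpne7 ran from -4.41 to -1.27, Gm11549 from -3.41 to -0.438, Whrn from 0.811 to 4.1 and Srebf2 from -1.46 to -0.856 points.

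The promoters of metabolic gene lists, which were chosen by function, held 0 or 1 member each with p below 0.05, near the share of 4.71% (521 of 11070) over all promoters. In the cholesterol synthesis list 14 of 29 genes had a promoter value and 1, Srebf2, had p below 0.05, with a median difference of 0.05 points over the list. In the list of fatty acid synthesis 0 of 19 promoters had it, with a median of -0.04 points, and Fasn, the fatty acid synthase, differed by -0.282 points (SE 0.186). Acss2, which makes acetyl-CoA from acetate, differed by 0.487 points (SE 0.338), or 0.320 without LF_LF replicate 4. In the list of fatty acid oxidation and ketogenesis 0 of 11 had it, with Acaa2, the last enzyme of the mitochondrial spiral, at -0.456 points (SE 0.347), or -0.288 without LF_HF replicate 10 and -0.238 without the 4 mice with the fewest reads. In the list of gluconeogenesis and glucose handling 0 of 7 had it. Slc37a4, the glucose-6-phosphate transporter, came nearest with 1.41 points (SE 0.729, permutation test, p = 0.0582), and Ppp1r3c, a glycogen-targeting subunit of protein phosphatase, was at 0.462 points (SE 0.599), or 0.0746 points without HF_HF replicate 9.

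Lists of regulators and clock genes also held 0 or 1 such member each, against the same 4.71% of all promoters. In the insulin signalling list 0 of 17 promoters had p below 0.05, with Rptor at -0.667 points (SE 0.427) and Igf1r at -0.275 (SE 0.186). Among nuclear receptors 1 of 14 had it, Rxrb, a partner of many lipid-sensing receptors, at 0.570 points (SE 0.246, permutation test, p = 0.0264). Its difference was 1.24 points among animals born from LF fed dams and -0.0993 points among those from HF fed dams, with a mean of 2.12% in LF_LF and 0.875% to 1.41% in the other groups. Thra, a thyroid hormone receptor, was at -1.20 points (SE 0.634). In the circadian clock list 0 of 11 had it, with Csnk1e, a kinase that marks period proteins, at -2.27 points (SE 1.25), or -1.45 without LF_LF replicate 9, and the repressor Bhlhe41 at -1.08 (SE 0.700), or -0.708 without LF_HF replicate 9. In the list of acute phase and inflammation 0 of 11 had it, with the adaptor Myd88 at 1.01 points (SE 0.516) and the transcription factor Cebpa at 0.227 (SE 0.157). Over the alternatives run, Igf1r ran from -0.661 to -0.141, Myd88 from 0.491 to 1.18 and Cebpa from -0.0141 to 0.875 points.

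Among imprinted genes, 25 of 53 had a promoter value and 1 had p below 0.05, again near the 4.71% of all promoters. It was Copg2, at 0.541 points (SE 0.209, permutation test, p = 0.0143). Its level was 1.97% in LF_LF and 0.923% to 1.05% in the other groups. Trappc9 was at -0.629 points (SE 0.320), and from -2.03 to 0.0718 over the alternatives run. The median over the list was -0.19 points. In the list of DNA methylation and one-carbon metabolism 1 of 22 had p below 0.05, Mbd3, a methyl-CpG binding domain protein, at 13.7 points (SE 5.96). Its promoter joins unmethylated and methylated CpGs, some matched mice lacked values at part of them, and relative to the mean of each CpG it differed by -0.372 points (SE 0.484). Mat2b, a subunit of methionine adenosyltransferase, was at 0.526 points (SE 0.291).

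With each CpG taken relative to its mean, 4 genes of these lists had p below 0.05: Srebf2 (-0.953 points) and Srebf1 (-0.495 points), the pair of sterol regulatory element binding factors, Rxrb (0.617 points) and Copg2 (0.624 points). In the same setting 548 of all 11070 promoters (4.95%) had it, so the count of list genes is no result about the lists. The plain mean of the Srebf1 promoter over 33 CpGs had a difference of -0.0419 points (SE 0.502). Markers of minor liver cell types with promoter values did not reach p below 0.05: 0 of 3 stellate cell genes, 0 of 1 endothelial gene and 0 of 2 cholangiocyte genes, whose differences ran from -2.66 points for Krt7 to 0.720 points for Sox9. Since the other markers had no promoter value, the part of cell makeup in these results was not tested.

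**Figure D5:**
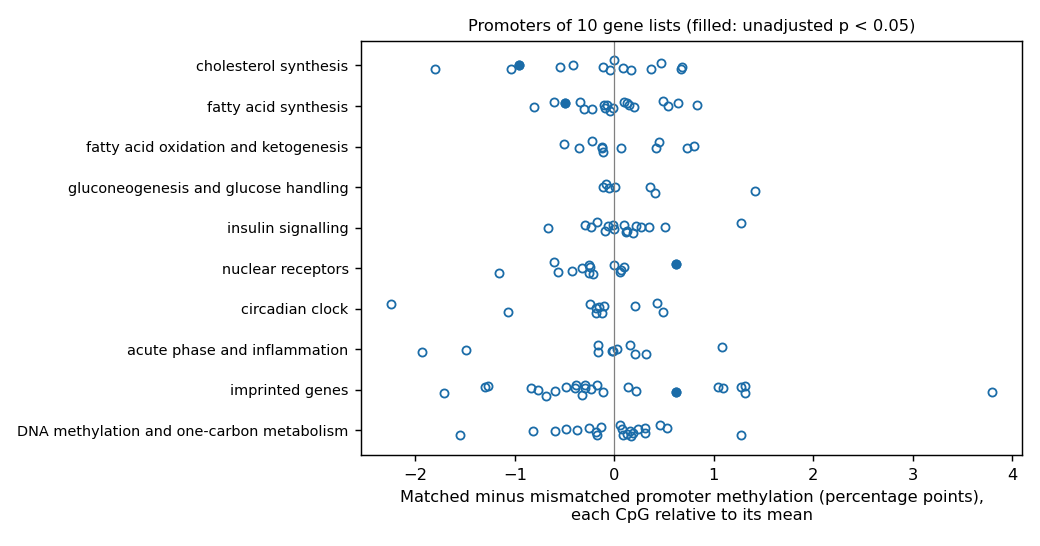
Matched minus mismatched promoter methylation (percentage points, each CpG relative to its mean) for the genes of 10 lists; each point is a gene, filled where the unadjusted p was below 0.05. The points scatter around 0 in each list, and the 4 filled ones are Srebf2, Srebf1, Rxrb and Copg2.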

How the data were processed

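Liver DNA of 40 male mice killed at 9 weeks was assayed by RRBS, with 10 animals in each of 4 diet groups taken from the labels. Per the study's methods, the authors digested DNA with MspI, size-selected and bisulfite-converted the libraries, and aligned single-end reads with Bismark (version not given in the sources used here); the build was mm9. The deposited table holds, per mouse and CpG cytosine, counts of methylated reads and counts of all reads, not normalized and with totals missing under 10 reads. The deposited fractions were not used, and 0 columns belonged to no mapped mouse. All 399856 listed positions on reference chromosomes fell on a CpG of NCBIM37; 442 were on unplaced contigs. Genes came from the GENCODE annotation of that build.

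Percent methylation was modelled over all 40 mice with Python 3.11.15, numpy 2.4.6, scipy 1.17.1 and pandas 2.3.3, as a linear model with both diets and their interaction, 1 residual variance and a two-sided test of the interaction. Benjamini-Hochberg adjustment was made over all CpGs, bins or promoters tested. CpGs without variance within groups had no p-value, which left 254765 of 262317. Bins were floor((base - 1)/1000). Single values were tested by permuting residuals of the model without interaction 100000 times (smallest p 1e-05). An FDR printed beside a permutation p comes from the linear model. A quasi-binomial model of counts and limma 3.58.1 (R 4.3.3) on log2 ratios with 0.5 added were alternatives, and the tests were checked on simulated data.

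The CpGs named are the 10 with the smallest p and the 5 largest differences each way among those with an unadjusted p below 0.05 and a value in all mice; bins, the 5 with the smallest p; promoters, the 10 with the smallest p and the 2 with the smallest p of each gene list, of which 1 is not reported here. The members of the comparison and the lists were chosen with earlier results of these data known. Replicates are different mice, numbered in the order of deposition.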

Additional observations from a re-analysis of the deposited data

Results flagged for a closer look

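The mean methylation of HF_HF replicate 2 stood apart from the other 9 animals of its group. It was 38.4% over all CpGs covered in every mouse, where the next mouse was at 39.2%, 58.1% at CpGs of 10% to 90%, 9.72% in promoters, 57.9% in introns and 58.5% at intergenic CpGs. This mouse also had the most reads (23345592), and the part of depth in its level was not tested.

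The interaction of both diets passed the permutation test after adjustment for 5 of the 8 means per mouse. The difference between matched and mismatched animals was -0.214 points over all CpGs covered in every mouse, -0.459 at CpGs of 10% to 90%, -0.209 in exons, -0.299 in introns and -0.413 at intergenic CpGs. Without HF_HF replicate 2 these were -0.163 (adjusted p = 0.0464), -0.323 (0.072), -0.164 (0.0726), -0.230 (0.0726) and -0.321 (0.0464), from permutation tests adjusted over the same 8 means, so 3 of the 5 calls were lost. The exon call was also lost without any 1 of LF_LF replicates 3, 7, 9 and 10, LF_HF replicates 2, 5, 8 and 9, HF_LF replicates 2, 3 and 9 and HF_HF replicates 1 and 8. The intron call was also lost without any 1 of LF_LF replicates 7, 9 and 10, LF_HF replicates 2, 7, 8 and 9, HF_LF replicate 9 and HF_HF replicates 1 and 8. The call at 10% to 90% was also lost without any 1 of LF_LF replicates 7, 9 and 10, LF_HF replicates 2, 8 and 9, HF_LF replicate 9 and HF_HF replicate 1. With 1 mouse left out, the mean at CpGs of 90% or more passed in 8 of 40 cases and that of promoters in 1. These repeats were chosen after seeing the data.

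Single animals also lay far from the rest of their group at named sites. Chance flags about 1 in 20 groups, and 24 of the 244 groups examined (9.84%) were flagged, many of them for the same mouse or the same promoter. Among CpGs, an LF_LF mouse had 41.7% at the Anks1 exon, an LF_LF mouse 10% at the Rassf5 intron and an LF_HF mouse 23.5% at the Ajap1 intron. Among bins, an HF_LF mouse had 84.5% in the Smad6 intron and another 65.4% in the Capn5 intron.

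Among promoters with the smallest p, HF_LF mice stood apart at Smyd3 (1.85%) and Gm11549 (7.04%), and HF_HF replicate 9, the mouse with the fewest reads, had 0% at Cpne7. In the gene lists, the mice apart were LF_HF at Acaa2 (4.80%) and Thra (9.09%), HF_HF replicate 9 at Ppp1r3c (9.55%), and LF_LF at Csnk1e (74.5%). For Bhlhe41 they were LF_HF (11.1%) and HF_LF (8.13%), and for Trappc9 LF_HF replicate 10 (5.94%) and HF_LF replicate 10 (3.90%). At Mbd3 the same 2 mice had 19.5% and 20.2%, and HF_HF replicate 8 had 85.7%, far above the next mouse at 27.4%.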

How the results depend on the processing

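The count of CpGs at an FDR of 5% was 0 in every alternative with all 40 mice, and 0 to 1 when each mouse was left out in turn, the 1 being Fgg without LF_HF replicate 5. Bins and promoters gave 0 throughout. The percentage of CpGs with an unadjusted p below 0.05 rose from 4.18% to 8.21% with at least 20 reads (200 of 2435 CpGs) and to 12.6% with at least 30 reads (113 of 896). Of these, 78.0% and 94.7% were lower in matched mice; 78 of the 200 and 77 of the 113 lay in the ribosomal DNA segment of chromosome 17. Of the promoters with p below 0.05, 57.0% were lower in matched mice (297 of 521); this turned to 45.7% with at least 10 reads in all 40 mice (63 of 138) and to 20% with at least 20 reads (1 of 5). The difference in mean methylation per mouse lost its call over every CpG a mouse covers (-0.114 points, p = 0.476), with at least 20 reads in all mice (-1.07, p = 0.127) and as a ratio of summed reads (-0.58, p = 0.541). It was -0.235 to -0.163 points when each mouse was left out (permutation tests), and -0.198 (p = 0.0115) without the ribosomal DNA segment, a setting chosen after seeing the data, as were those with each CpG relative to its mean and without HF_HF replicate 2. Promoter differences that changed sign were Ppp1r3c without the 4 mice with the fewest reads (-0.0881) and within 250 bp of a start (-0.686), Cebpa (-0.0141) with at least 10 reads in all mice, Trappc9 with at least 20 reads (0.0718), and Mbd3 within 250 bp (-0.762) and relative to the mean of each CpG (-0.372). The cause of these shifts was not tested. No paired analysis was possible because the labels give no replicate numbers that pair mice across groups.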

Other observations

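The ribosomal DNA segment of chromosome 17 holds copies of the repeated genes for ribosomal RNA, which cells carry in many arrays and keep partly methylated. Reads of all copies gather there, so its values are means over the arrays. It took 20.6% to 35.5% of a mouse's reads at the CpGs covered in all mice. Of its 417 tested CpGs between chr17:39979959 and chr17:39985744, 80 (19.2%) had an unadjusted p below 0.05, 76 of them lower and 4 higher in matched mice, against 4.18% of all 254765 CpGs tested (2.61% lower and 1.56% higher), with 0 at an FDR of 5%. This segment was singled out after its values were seen, so it is given with no test. Its mean methylation over 399 CpGs was 18.1% ± 3.79 (SD, n = 10) in LF_LF, 21.8% ± 4.37 in HF_HF, 21.9% ± 2.46 in LF_HF and 21.1% ± 3.0 in HF_LF mice. The lowest animals were an LF_LF mouse at 9.93% and an HF_HF mouse at 13.0%, the highest was an HF_HF mouse at 27.7%, and the mismatched animals ran from 16.5% to 26.2%. The difference was -1.55 points with an SE of 1.10. It was -3.80 points among animals born from LF fed dams and 0.689 points, in the other direction, among those born from HF fed dams. The CpGs of the segment are not independent of each other.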
